A study of Rattus norvegicus with 28 samples.

Results

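The complement genes described here are the C1q chains C1qa, C1qb and C1qc, the protease C1s, the components C2 and C3, and the regulators Cfi and Serping1. They were taken as the probe sets whose symbol in the platform annotation is one of these 8 names, each gene by its probe set of highest mean over the 28 arrays. Of the 8 genes, 7 had a probe set of their own, 1 each, among 14217 genes with such a probe set, and all 7 passed a filter that leaves out the dimmest 40% of probe sets. C2 was annotated only on 4 probe sets that also carry Cfb, so no level could be given to C2 alone.

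RNA of whole kidneys from female rats was measured with 1-colour Affymetrix arrays, 7 per group, in SBH/y rats after right uninephrectomy (1 kidney left), SBH/y rats after a sham operation (2 kidneys), SBN/y rats after uninephrectomy and SBN/y rats after a sham operation. Animals were 5 months old, 4 months after the operation, and ate standard chow. SBH/y and SBN/y are the Sabra strains known to develop and to resist salt-sensitive hypertension, and SBH/y rats are known to lose protein in the urine, the subject of the series. Each strain is inbred, so a strain difference covers every locus at which the strains differ. The p-values rest on the spread among the 7 arrays within each group, shared over all groups. The labels do not tie the arrays to separate animals.

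Values are log2 signals on 1 scale across arrays, and a difference of 1 is a 2-fold difference. The array medians lay between 5.72 and 5.77, and 11 kidney marker genes averaged between 10.92 and 11.11 per array over all 28 arrays, with the loop gene Umod and the proximal tubule gene Slc34a1 at means of 13.26 and 12.96 in SBH/y kidneys after uninephrectomy. In SBH/y kidneys after uninephrectomy, replicate 2 had a Bmal1 value of 7.52, while the other 6 arrays lay between 4.41 and 5.20, and in SBN/y kidneys after uninephrectomy, replicate 6 had 4.95, while the other 6 lay between 6.79 and 7.28. Bmal1 is a core gene of the circadian clock, and calls described here that change without these 2 arrays are given in both ways.

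Complement is a cascade of plasma proteins that tags cells and particles for removal. C1q recognises bound antibody and other surfaces, its partner proteases C1r and C1s cleave C4 and C2, and the resulting enzyme cleaves C3, on which all routes of activation converge. Factor I (Cfi) inactivates the cleaved forms of C3 and C4, and C1 inhibitor (Serping1) blocks C1r and C1s. The liver makes most plasma complement, C1q is made chiefly by macrophages and dendritic cells, and kidney cells are known to make some components themselves. In whole tissue, more cells of a type and more RNA per cell cannot be told apart.

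RefSeq promoter windows of the build GRCr8, 250 bases before to 50 after a start position, were given for 4 of the 8 genes. All 4 are shown. Cfi varied more closely with the C1q chains across arrays than C3 did, as described below. Whether these sequences play a part in that was not tested. For C1qa, C1qb and C3 the start position is the start of the annotated gene. The Cfi window lies wholly inside the annotated gene, which begins at base 221062206 of chromosome 2. Capitals mark matches, on either strand, to 3 motifs: the PU.1 core GAGGAA, the gamma-activated site TTCNNNGAA and the C/EBP site TTGCGNAA.
C1qa, chr5:154419884-154420183, minus strand: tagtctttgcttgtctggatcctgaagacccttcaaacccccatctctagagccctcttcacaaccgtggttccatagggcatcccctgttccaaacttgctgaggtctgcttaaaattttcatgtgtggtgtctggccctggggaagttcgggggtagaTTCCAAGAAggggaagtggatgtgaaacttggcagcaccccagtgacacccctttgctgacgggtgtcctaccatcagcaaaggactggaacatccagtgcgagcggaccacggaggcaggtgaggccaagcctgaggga
C1qb, chr5:154407778-154408077, minus strand: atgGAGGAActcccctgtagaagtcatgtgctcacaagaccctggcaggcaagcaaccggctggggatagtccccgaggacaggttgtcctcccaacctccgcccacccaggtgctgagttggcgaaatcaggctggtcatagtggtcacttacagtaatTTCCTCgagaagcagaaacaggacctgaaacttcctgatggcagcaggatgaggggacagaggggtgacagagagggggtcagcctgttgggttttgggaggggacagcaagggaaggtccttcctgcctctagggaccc
C3, chr9:2201290-2201589, minus strand: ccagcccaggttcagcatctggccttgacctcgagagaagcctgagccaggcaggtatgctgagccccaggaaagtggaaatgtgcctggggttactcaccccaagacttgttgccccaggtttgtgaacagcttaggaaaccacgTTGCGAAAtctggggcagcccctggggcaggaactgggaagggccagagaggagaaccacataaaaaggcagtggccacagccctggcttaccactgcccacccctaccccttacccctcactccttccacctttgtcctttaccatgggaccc
Cfi, chr2:221063066-221063365, plus strand: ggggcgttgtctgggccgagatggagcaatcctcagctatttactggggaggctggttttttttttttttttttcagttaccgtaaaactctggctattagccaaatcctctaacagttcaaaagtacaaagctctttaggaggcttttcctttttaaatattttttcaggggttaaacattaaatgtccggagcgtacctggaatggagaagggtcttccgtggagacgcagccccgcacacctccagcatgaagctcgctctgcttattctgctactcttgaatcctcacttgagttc

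The C1qa window held 1 gamma-activated site match, starting at base 161, a motif found in 8.87% of 33469 promoter windows of this length. The C1qb window held PU.1 core matches at bases 4 and 161, the second on the opposite strand, a motif found in 27.6% of windows. In the C3 window a C/EBP match started at base 147, a motif in 0.846% of windows. The Cfi window, which lies inside the annotated gene, held none of the 3. No matches overlapped, and they describe letters only, not bound sites.

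The first question was how complement expression differed between the strains once a kidney had been removed. All 7 measured members were higher in SBH/y than in SBN/y kidneys after uninephrectomy, by 1.16- to 1.76-fold. Among all 31042 probe sets tested, 11.1% were called higher and 10.3% lower in this comparison (limma, Benjamini-Hochberg adjusted p under 0.05). Among the 14217 genes, each by its brightest probe set as the members are, 14.9% were called higher and 11.9% lower. With both kidneys in place, 4 of the 7 members were higher in SBH/y (C1qa, C1qc, C3 and Serping1) and 0 were lower, where 9.64% of all probe sets were called higher and 8.31% lower. Over the 14217 genes these shares were 11.8% and 9.69%. The 2 strain comparisons use different arrays of each strain. The members were chosen with earlier results of these data known, so their counts beside these shares are descriptions, not an independent test.

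**Figure D1:**
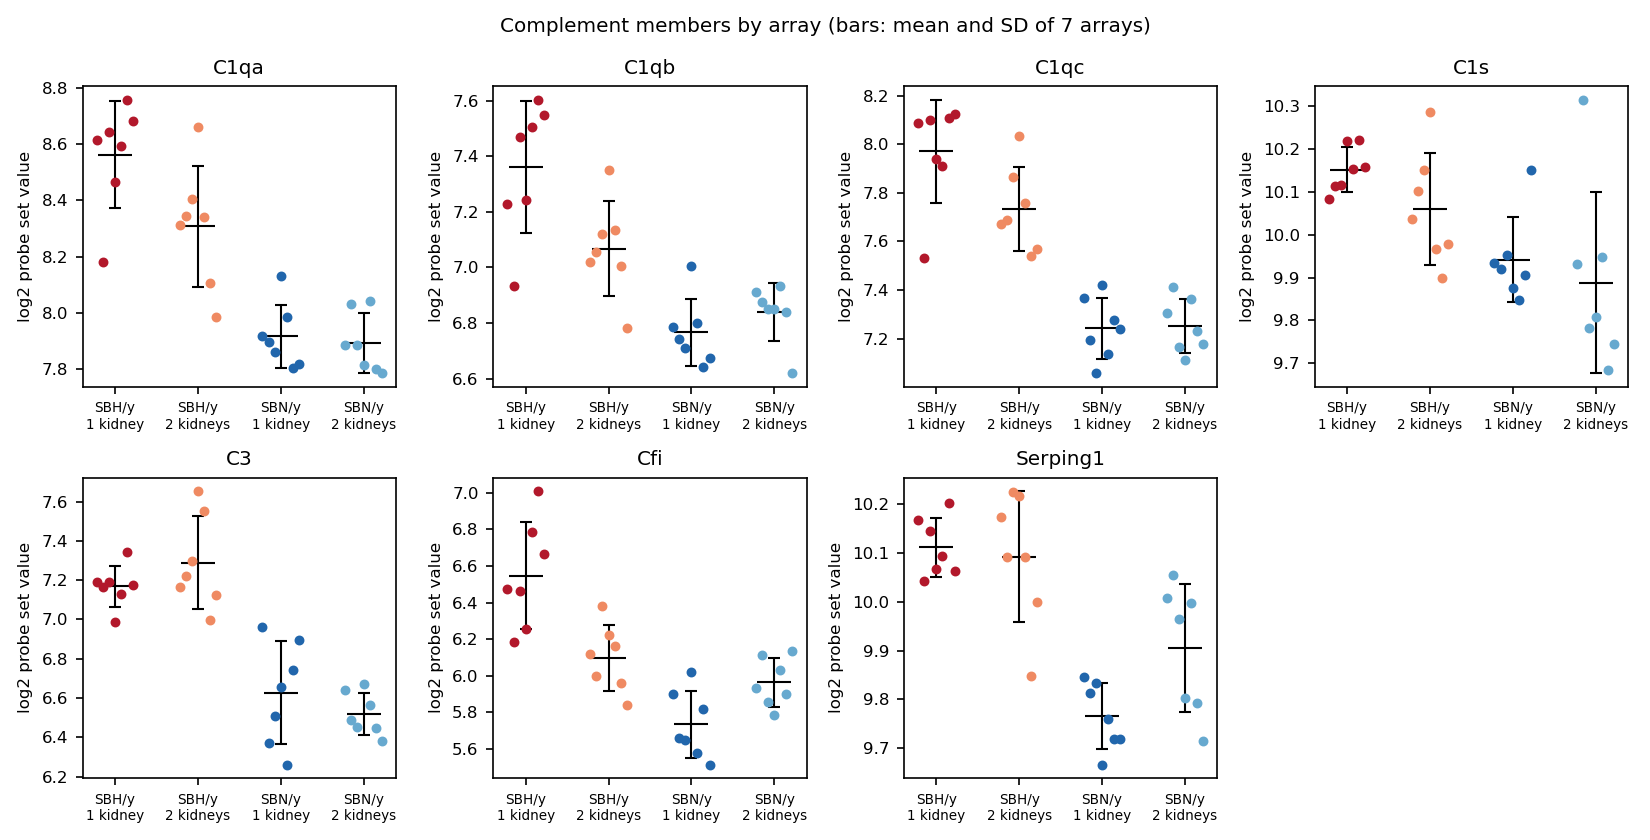
Log2 value of each of the 7 measured members on each array, in SBH/y with 1 kidney, SBH/y with 2 kidneys, SBN/y with 1 kidney and SBN/y with 2 kidneys (7 arrays each); points are arrays and bars the group mean and SD. C1qa, C1qc, C3, Cfi and Serping1 of SBH/y kidneys after uninephrectomy lie above every SBN/y array after uninephrectomy, and Cfi shows its high values in that SBH/y group.

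The C1q chains are encoded side by side on chromosome 5 in the order C1qb, C1qc and C1qa. C1qc, the C chain, had a lowest, median and highest value of 7.53, 8.09 and 8.13 in SBH/y kidneys after uninephrectomy, against 7.06, 7.24 and 7.42 in SBN/y kidneys after uninephrectomy. With both kidneys it had 7.54, 7.69 and 8.04 in SBH/y, against 7.11, 7.23 and 7.41 in SBN/y. No SBH/y array overlapped the SBN/y arrays in either state, and the lowest SBH/y array after uninephrectomy was replicate 2, the one apart in Bmal1. The difference after uninephrectomy was 0.73 ± 0.08 (SE), 1.66-fold with a 95% interval of 1.48 to 1.86 (adjusted p = 2.86e-08). With both kidneys it was 0.48 ± 0.08, 1.39-fold (adjusted p = 4.76e-05).

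C1qa, the A chain, had 8.18, 8.62 and 8.76 in SBH/y kidneys after uninephrectomy, against 7.80, 7.90 and 8.13 in SBN/y kidneys, with no overlap. With both kidneys it had 7.99, 8.34 and 8.66 in SBH/y, against 7.79, 7.89 and 8.04 in SBN/y, and 6 of 7 SBH/y arrays lay above every SBN/y array. The strain difference was 0.65 ± 0.08 after uninephrectomy (1.57-fold, adjusted p = 3.61e-07) and 0.41 ± 0.08 with both kidneys (1.33-fold, adjusted p = 0.000405).

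C1qb, the B chain, had 6.93, 7.47 and 7.60 in SBH/y kidneys after uninephrectomy, against 6.64, 6.74 and 7.01 in SBN/y kidneys, and 6 of 7 SBH/y arrays lay above all SBN/y arrays. The exception was again replicate 2. Its difference was 0.60 ± 0.08 (1.51-fold, adjusted p = 2.08e-06). With both kidneys C1qb had 6.78, 7.05 and 7.35 in SBH/y and 6.62, 6.85 and 6.93 in SBN/y. That difference of 0.23 ± 0.08 had an adjusted p of 0.0606 and a 95% interval of 0.05 to 0.40, so it was not called. It passed without SBH/y sham replicate 7, at 0.27 with an adjusted p of 0.0204, and without uninephrectomised SBH/y replicate 2, which belongs to neither group but enters the shared spread, at an adjusted p of 0.026. It was also called without both arrays apart in Bmal1 (adjusted p = 0.0267), with only the 2 groups compared (adjusted p = 0.0376), with array weights (0.25, adjusted p = 0.025), without the dimmest 40% of probe sets (adjusted p = 0.045) and with trended and robust eBayes (adjusted p = 0.0496).

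C1s, the protease that C1q-bound C1r activates, had the smallest strain difference of the members after uninephrectomy. It had 10.08, 10.15 and 10.22 in SBH/y kidneys after uninephrectomy, against 9.85, 9.92 and 10.15 in SBN/y kidneys, and 4 of 7 SBH/y arrays lay above all SBN/y arrays. The difference was 0.21 ± 0.07 (1.16-fold, adjusted p = 0.03). This call was lost when any 1 of 5 arrays was left out, replicates 4, 5 or 6 of SBN/y or 4 or 6 of SBH/y after uninephrectomy, with adjusted p of 0.0564, 0.0614, 0.0509, 0.057 and 0.0558 in that order. It was lost too without the 2 arrays apart in Bmal1, where the difference was 0.21 with an adjusted p of 0.0578. With both kidneys C1s had 9.90, 10.04 and 10.29 in SBH/y, against 9.68, 9.81 and 10.32 in SBN/y, so the highest array of the pair of groups was an SBN/y one. The difference of 0.17 ± 0.07 (adjusted p = 0.0953) was not called. Without that SBN/y array, replicate 2, it was 0.24 with an adjusted p of 0.00262, and without SBH/y sham replicate 6 it was 0.20 with an adjusted p of 0.0494. Array weights gave 0.22 with an adjusted p of 0.0156.

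C3, the component on which the pathways converge, differed between the strains in both states. In kidneys after uninephrectomy it had 6.99, 7.17 and 7.34 in SBH/y, against 6.26, 6.66 and 6.96 in SBN/y. With both kidneys it had 6.998, 7.22 and 7.65 in SBH/y, against 6.38, 6.49 and 6.67 in SBN/y. The strains did not overlap in either state, though the gap after uninephrectomy was only that between 6.99 and 6.96. The difference was 0.54 ± 0.10 after uninephrectomy (1.45-fold, 95% interval 1.27 to 1.67, adjusted p = 6.3e-05) and 0.77 ± 0.10 with both kidneys (1.70-fold, 1.49 to 1.95, adjusted p = 2.93e-07). C3 was the only member whose estimated strain difference was smaller after uninephrectomy, and the change in it, -0.23 ± 0.14, did not pass the test (adjusted p = 0.564).

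Cfi, the serine protease that inactivates cleaved C3 and C4, had 6.18, 6.47 and 7.01 in SBH/y kidneys after uninephrectomy, against 5.51, 5.66 and 6.02 in SBN/y kidneys after uninephrectomy. With both kidneys it had 5.84, 6.12 and 6.38 in SBH/y, against 5.78, 5.93 and 6.13 in SBN/y. The strains were apart on every array after uninephrectomy and overlapped after the sham operation. The strain difference was 0.81 ± 0.10 after uninephrectomy (1.76-fold, 95% interval 1.52 to 2.03, adjusted p = 2.56e-07) and 0.13 ± 0.10 with both kidneys (adjusted p = 0.417, 95% interval -0.07 to 0.34).

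Serping1, which encodes C1 inhibitor, had 10.04, 10.09 and 10.20 in SBH/y kidneys after uninephrectomy, against 9.67, 9.76 and 9.85 in SBN/y kidneys, without overlap. With both kidneys it had 9.85, 10.09 and 10.22 in SBH/y, against 9.71, 9.97 and 10.05 in SBN/y, and 5 of 7 SBH/y arrays lay above all SBN/y ones. The difference was 0.35 ± 0.06 after uninephrectomy (1.27-fold, adjusted p = 2.14e-05) and 0.19 ± 0.06 with both kidneys (1.14-fold, adjusted p = 0.0185). The second call was lost without SBN/y sham replicate 7 (0.16, adjusted p = 0.0574), without SBH/y sham replicate 3 (0.17, adjusted p = 0.0518) or without SBH/y sham replicate 4 (0.17, adjusted p = 0.0506), and when only the 2 groups compared were fitted (adjusted p = 0.0747).

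**Figure D2:**
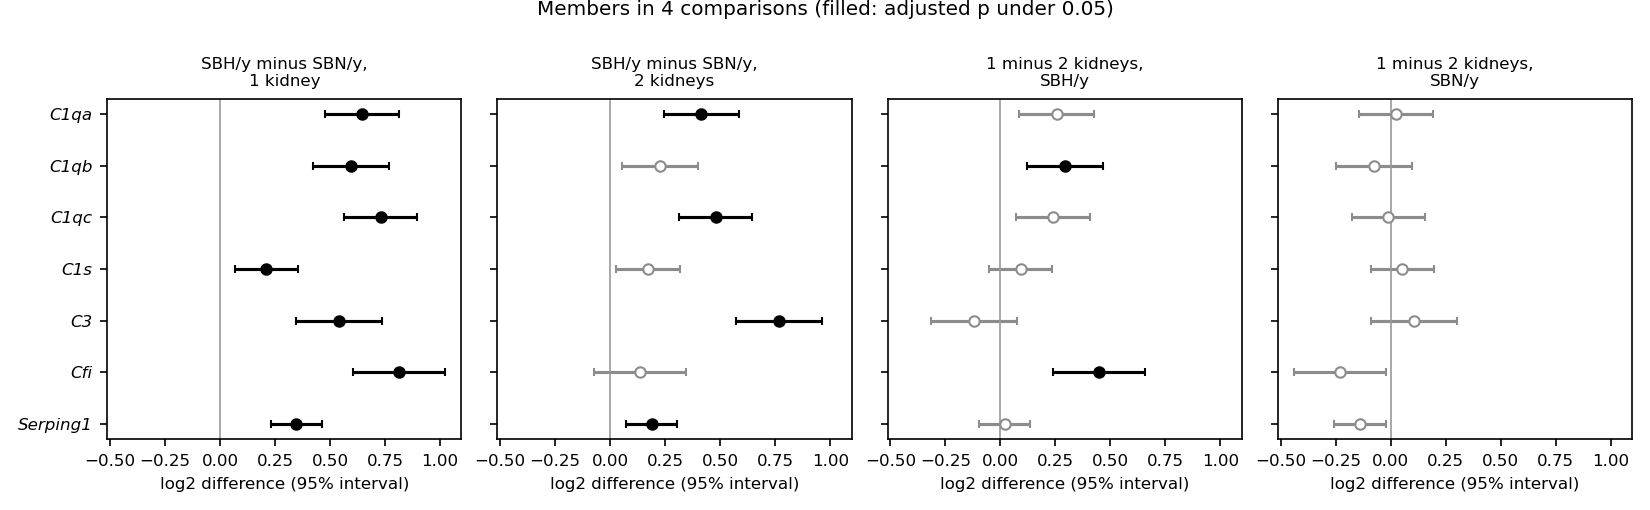
Log2 difference of each member with its 95% interval in 4 comparisons, SBH/y minus SBN/y with 1 kidney and with 2 kidneys, and 1 minus 2 kidneys in SBH/y and in SBN/y; filled points have an adjusted p under 0.05. All 7 points are filled for the strain difference with 1 kidney, 4 for that with 2 kidneys, 2 for uninephrectomy in SBH/y and 0 for uninephrectomy in SBN/y.

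The second question was what uninephrectomy did within each strain. In SBH/y kidneys, C1qb and Cfi were higher after uninephrectomy and none of the 7 members was lower, while 3.33% of all probe sets were called higher and 4.91% lower. Over the 14217 genes these shares were 4.85% and 5.51%. In SBN/y kidneys 0 of the 7 members were called by limma, where 0.464% of all probe sets were called in either direction, and 2 members, Cfi and Serping1, had an unadjusted p under 0.05, as did 8.75% of all probe sets. Over the 14217 genes, 0.288% were called higher and 0.317% lower in SBN/y kidneys. The interaction, how much larger the uninephrectomy effect was in SBH/y than in SBN/y, was called for Cfi alone among the members, against 0.596% of all probe sets called higher and 0.818% lower. Over the 14217 genes these shares were 0.964% and 1.1%. The same SBH/y arrays after uninephrectomy enter the strain comparison above and this one.

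Cfi was 0.45 ± 0.10 higher after uninephrectomy in SBH/y kidneys (1.37-fold, 95% interval 1.18 to 1.58, adjusted p = 0.00458), and 5 of the 7 arrays with 1 kidney lay above all 7 with 2 kidneys. In SBN/y kidneys its median was 5.66 after uninephrectomy, against 5.93 after the sham operation, a difference of -0.23 ± 0.10 that did not pass the test (adjusted p = 0.496). The effects in the 2 strains differed by 0.68 ± 0.14 (95% interval 0.38 to 0.98, adjusted p = 0.012). In the order of group means, Cfi stood at 6.55 ± 0.29 (SD, n = 7) in SBH/y after uninephrectomy, 6.10 ± 0.18 in SBH/y with both kidneys, 5.96 ± 0.13 in SBN/y with both kidneys and 5.73 ± 0.18 in SBN/y after uninephrectomy. Of the neighbours in this order, those that differ in the test are the first pair.

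C1qb was 0.29 ± 0.08 higher after uninephrectomy in SBH/y kidneys (1.23-fold, adjusted p = 0.0257), and 4 of the 7 arrays with 1 kidney lay above all 7 with 2 kidneys. The call was lost when SBH/y sham replicate 7 (0.25, adjusted p = 0.0702) or uninephrectomised SBH/y replicate 3, 5, 6 or 7 was left out, with differences of 0.28, 0.27, 0.25 and 0.26 and adjusted p of 0.0516, 0.0582, 0.0706 and 0.0669. It was lost too when only the 2 SBH/y groups were fitted (adjusted p = 0.0835). C1qa and C1qc had differences of similar size, 0.26 ± 0.08 (adjusted p = 0.0522) and 0.24 ± 0.08 (adjusted p = 0.0669), and were not called. Without uninephrectomised SBH/y replicate 2, C1qa was 0.32 higher (adjusted p = 0.0061) and C1qc 0.31 higher (adjusted p = 0.00362). Without SBH/y sham replicate 4 the values were 0.31 (adjusted p = 0.0112) and 0.29 (adjusted p = 0.0216), and C1qa also passed without SBN/y replicate 4 after uninephrectomy (0.26, adjusted p = 0.0471). With both arrays apart in Bmal1 left out, 4 members were called higher in SBH/y after uninephrectomy instead of 2.

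In SBN/y kidneys the C1q chains had uninephrectomy differences of 0.02 (C1qa), -0.07 (C1qb) and -0.01 (C1qc), each with an SE of 0.08, and the 95% intervals lay between -0.25 and 0.19. The difference between the strains in this effect was 0.37 ± 0.12 for C1qb (adjusted p = 0.133), 0.25 for C1qc (adjusted p = 0.38) and 0.23 for C1qa (adjusted p = 0.448), so a difference between the strains was not shown for any of the 3. Without uninephrectomised SBH/y replicate 2 the C1qb interaction was 0.44 (adjusted p = 0.015). Without both arrays apart in Bmal1 it was 0.42 (adjusted p = 0.0239).

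The remaining members were not called in either strain. C3 was -0.12 ± 0.10 in SBH/y (adjusted p = 0.52) and 0.11 ± 0.10 in SBN/y (adjusted p = 0.864). Serping1 was 0.02 ± 0.06 in SBH/y and -0.14 ± 0.06 in SBN/y (adjusted p = 0.42), and C1s was 0.09 ± 0.07 and 0.05 ± 0.07. The 95% intervals in SBH/y were -0.32 to 0.08 for C3, -0.10 to 0.14 for Serping1 and -0.05 to 0.24 for C1s.

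Beside the uninephrectomy effect in SBH/y, circadian clock genes moved. Of 14 clock genes, 8 were called higher and 3 lower in SBH/y kidneys after uninephrectomy. Bmal1 was between 4.41 and 5.20 on 6 of the 7 arrays of that group, against 7.06 to 7.59 in SBH/y sham kidneys. The array outside that range, replicate 2, gave the lowest value of its group for 5 of the 7 members, C1qa, C1qb, C1qc, Cfi and Serping1. The other array apart in Bmal1, SBN/y replicate 6 after uninephrectomy, had a low Bmal1 value for its group, 4.95. It was lowest of its group for 2 members, C1qa and C1qb, and highest for 0. The part of the clock genes in the complement values was not tested.

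C2, which C1s cleaves, could be seen only through the 4 probe sets annotated to both Cfb and C2, neighbouring genes in the class III region of the major histocompatibility complex. Their values belong to neither gene alone. The probe set 1383391_a_at had 6.74, 7.08 and 7.16 in SBH/y kidneys after uninephrectomy and 6.43, 6.48 and 7.03 in SBH/y sham kidneys, against 5.69, 5.999 and 6.14 in SBN/y kidneys after uninephrectomy and 5.54, 5.81 and 6.04 in SBN/y sham kidneys. Every SBH/y array lay above every SBN/y array. The strain difference was 1.06 ± 0.09 after uninephrectomy (2.09-fold, adjusted p = 8.05e-11) and 0.77 ± 0.09 with both kidneys (1.71-fold, adjusted p = 6.61e-08), and uninephrectomy in SBH/y gave 0.43 ± 0.09 (adjusted p = 0.00168).

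The other probe sets annotated to Cfb and C2 were higher in SBH/y in both states as well. 1393219_at differed by 0.77 and 0.46, 1383392_at by 0.58 and 0.28, and 1389470_at by 0.23 and 0.28, each pair after uninephrectomy and with both kidneys. None of these 3 was called for uninephrectomy in SBH/y, with 0.28 (adjusted p = 0.0788), 0.28 (adjusted p = 0.0698) and -0.08 (adjusted p = 0.488) in the same order. For 2 of them this rests on the setting. 1383392_at was called without the 2 arrays apart in Bmal1 (0.33, adjusted p = 0.0281), without SBH/y replicate 2 after uninephrectomy (0.33, adjusted p = 0.0246), without SBH/y sham replicate 4 (0.35, adjusted p = 0.0121), with quantile normalization (0.31, adjusted p = 0.0441) and without the dimmest 40% (adjusted p = 0.0491). 1393219_at was called without SBH/y sham replicate 4 (0.35, adjusted p = 0.0166) and without SBH/y replicate 4 after uninephrectomy (0.33, adjusted p = 0.0406). The 4 probe sets thus differ in the size of the strain difference and 1389470_at also in the sign of the uninephrectomy value. Whether a sequence variant under a probe plays a part was not tested. The call of 1383392_at with both kidneys (adjusted p = 0.0352) was lost on leaving out any 1 of 6 arrays, with an adjusted p of up to 0.112, and with quantile normalization (adjusted p = 0.0591).

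The probe set annotated to both C4a and C4b, near-identical copies of the other substrate of C1s, showed the widest strain gap among the complement probe sets described. It had 9.78, 10.35 and 10.78 in SBH/y kidneys after uninephrectomy and 9.31, 9.61 and 9.73 in SBH/y sham kidneys, against 7.78, 7.94 and 8.48 in SBN/y kidneys after uninephrectomy and 7.97, 8.23 and 8.59 in SBN/y sham kidneys. The 3 levels, SBH/y after uninephrectomy, SBH/y sham and both SBN/y groups, did not overlap. The strain difference was 2.23 ± 0.12 after uninephrectomy (4.69-fold, 95% interval 3.98 to 5.53, adjusted p = 9.91e-16) and 1.36 ± 0.12 with both kidneys (2.57-fold, adjusted p = 1.23e-10). Uninephrectomy gave 0.70 ± 0.12 in SBH/y (1.63-fold, adjusted p = 0.00015) and -0.17 ± 0.12 in SBN/y (adjusted p = 0.774), and the effects differed by 0.87 ± 0.16 (adjusted p = 0.00531).

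**Figure D3:**
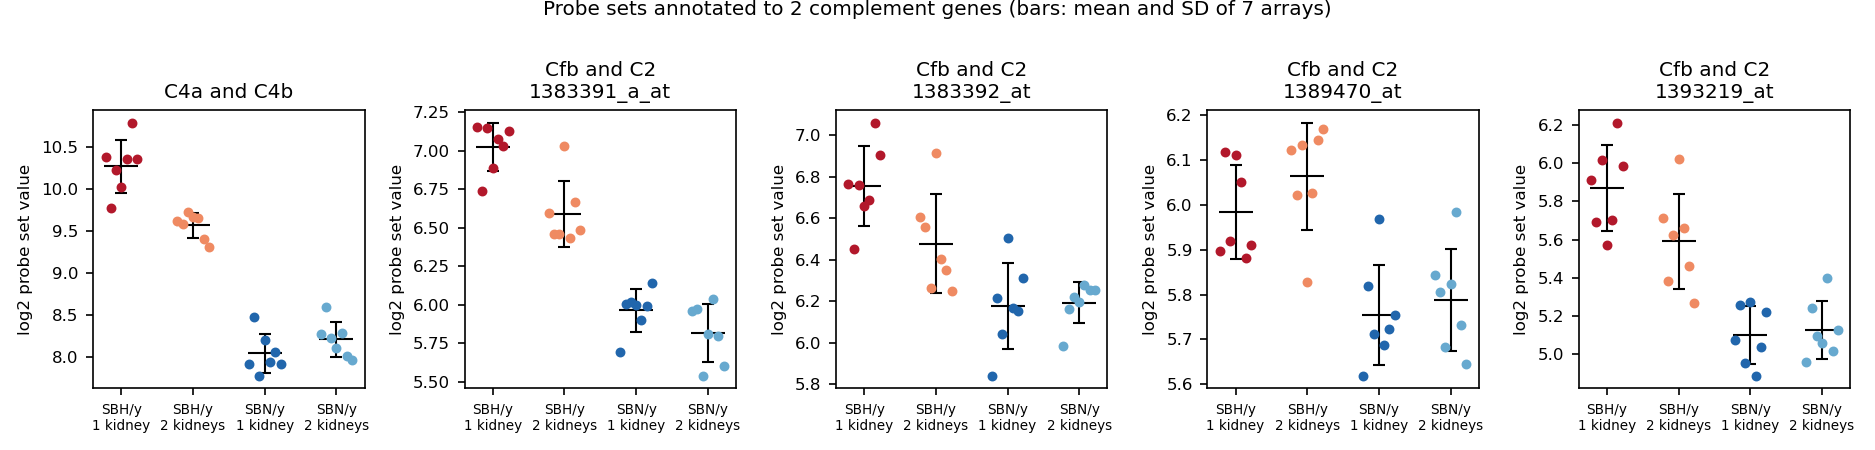
Log2 value on each array of the probe set annotated to C4a and C4b and of the 4 probe sets annotated to Cfb and C2, in SBH/y with 1 kidney, SBH/y with 2 kidneys, SBN/y with 1 kidney and SBN/y with 2 kidneys; bars are the mean and SD of 7 arrays, and each panel has its own axis. The C4a and C4b probe set stands at 10.27, 9.57, 8.04 and 8.21 in that order of groups, and 1389470_at shows the smallest strain differences of the 5.

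Within the groups, the members did not vary as 1 unit. Over the 28 arrays, with each array's group mean subtracted, Pearson's r was 0.89 between C1qa and C1qb, 0.86 between C1qa and C1qc and 0.75 between C1qb and C1qc. Cfi followed the C1q chains at 0.68, 0.67 and 0.67 for C1qa, C1qb and C1qc, and C1s followed Serping1 at 0.61. C3 correlated with the other 6 members between 0.34 and 0.51. All these values share arrays and normalization, and they are descriptions.

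SBH/y replicate 6 after uninephrectomy gave the highest value of its group for 6 of the 7 members. Among SBH/y sham kidneys, replicate 4 was highest for 5 members, replicate 6 was lowest for 4 and replicate 7 for the other 3. In SBN/y sham kidneys replicate 7 was lowest for 4 members.

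Of 14210 other genes, those most like the mean of the 3 C1q chains by this within-group correlation were Ly86 (0.87), a partner of the receptor CD180, Ctss (0.84), the protease cathepsin S, RT1-DMa (0.84), which loads peptide on class II molecules, Fcgr3a (0.80), an antibody receptor, and Tap1 (0.78), the peptide transporter of class I molecules. They were not alike in the strain comparisons. Ly86 was 0.95 and Fcgr3a 1.11 higher in SBH/y after uninephrectomy, while RT1-DMa differed by 0.07. With both kidneys Ly86 was 0.80 and Fcgr3a 0.89 higher, while RT1-DMa was lower (-0.35, adjusted p = 0.000456). Ctss and Tap1 were higher in SBH/y in both states. For uninephrectomy in SBH/y, RT1-DMa was 0.50 higher (adjusted p = 2.84e-05), while Ly86 (0.10), Ctss (0.23), Fcgr3a (-0.06) and Tap1 (0.05) were not called. Most like C3 were Asb2 (0.70), Fgg (0.67), the gamma chain of fibrinogen, Eif4e3 (0.65), Guk1 (0.64) and Apol3l1 (0.64).

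Most markers of macrophages, a main source of C1q, moved with the C1q chains between the strains. Of 17 measured macrophage markers, 12 were called higher and 2 lower in SBH/y after uninephrectomy, and 10 higher and 2 lower with both kidneys. The 2 lower ones were Cd163 and Mrc1 in each state. The lowest difference of the list was -0.54 after uninephrectomy and -0.76 with both kidneys. Csf1r and Fcgr2b were called higher after uninephrectomy but not with both kidneys. Their mean per array lay between 6.88 and 7.22 in SBH/y kidneys after uninephrectomy and between 6.82 and 7.12 in SBH/y sham kidneys, against 6.58 to 6.74 in SBN/y kidneys after uninephrectomy and 6.51 to 6.82 in SBN/y sham kidneys. The mean of the 3 C1q chains lay between 7.55 and 8.16, between 7.45 and 8.02, between 7.21 and 7.52 and between 7.19 and 7.45 in the same order of groups. For uninephrectomy in SBH/y, 5 of the 17 markers were called higher and 0 lower. Lyz2, the lysozyme of myeloid cells and the brightest of the markers, was 0.93 higher in SBH/y after uninephrectomy and 1.04 with both kidneys, and 0.01 higher after uninephrectomy in SBH/y (adjusted p = 0.954). Of 9 lymphocyte markers, 2 were higher in SBH/y after uninephrectomy, and with both kidneys 2 were higher and 3 lower. For uninephrectomy in SBH/y, 4 of them were called higher, among them Jchain, of antibody-secreting cells, by 1.19 and Cd3e, of T cells, by 0.54, and 3 of the 9 were called for the interaction. The mean of the 9 per array lay between 5.02 and 5.40 in SBH/y kidneys after uninephrectomy, against 4.79 to 5.12 in SBH/y sham kidneys. Of 10 fibroblast markers, 2 were higher and 1 lower after uninephrectomy in SBH/y, and of the 11 kidney markers 2 were higher and 1 lower. Between the strains, 3 fibroblast markers were higher and 1 lower in SBH/y after uninephrectomy, and 1 higher and 2 lower with both kidneys. Of 8 adipose markers, 2 were higher and 0 lower in SBH/y after uninephrectomy. With both kidneys 1 was higher and 2 lower, Fabp4 and Ucp1, and the lowest difference of the list was -2.74. Of 6 neutrophil markers, 1 was higher and 0 lower in each state. The part of these cell types in the complement values was not tested.

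**Figure D4:**
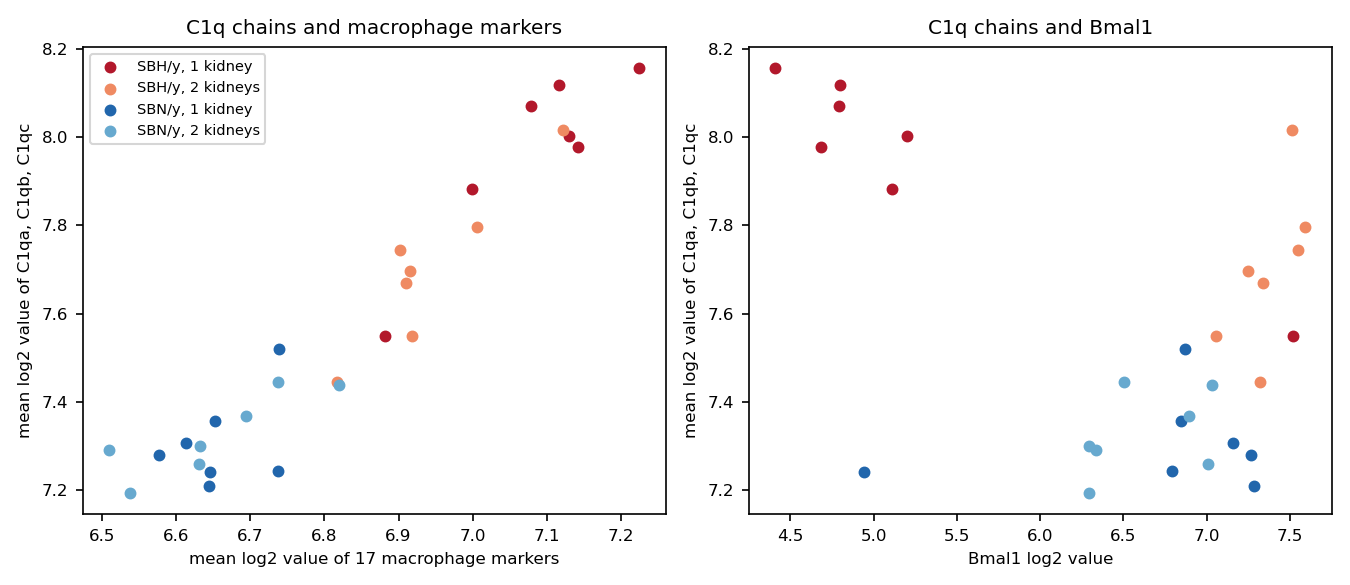
Mean log2 value of C1qa, C1qb and C1qc on each of the 28 arrays (vertical axis) against the mean log2 value of 17 macrophage markers and against Bmal1 (horizontal axes), with the 4 groups in different colours. The macrophage marker means run between 6.82 and 7.22 on SBH/y arrays and between 6.51 and 6.82 on SBN/y arrays, meeting at 6.82, and the uninephrectomised SBH/y array with a Bmal1 value of 7.52 has the lowest C1q mean of its group, 7.55. The uninephrectomised SBN/y array with a Bmal1 value of 4.95 has a C1q mean of 7.24, inside its group's range of 7.21 to 7.52.

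Interferon response genes, which can share inducers with C1 inhibitor, C2 and C3, were also higher in SBH/y. Of 18 measured, 15 were called higher after uninephrectomy and 11 with both kidneys, with 0 lower in each. Uninephrectomy in SBH/y called 5 higher. Of 9 hepatocyte markers, 3 were higher after uninephrectomy and 4 with both kidneys, and their mean per array lay between 4.52 and 5.56 over all 4 groups, under the lowest array median. Single markers stood higher. Fga had group means between 6.18 and 6.87. Alb was uneven in SBN/y kidneys, with a median of 4.80 and a highest array of 10.05 after uninephrectomy, and 6.07 and 8.82 after the sham operation. The part of these programmes in the complement values was not tested.

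In the wider pathway, 41 of 53 listed complement genes had a probe set of their own, 34 of them outside the members, and 17 of the 41 had group means below the lowest array median in all 4 groups. After uninephrectomy 13 of the 41 were higher and 4 lower in SBH/y, with a median difference of 0.07, against 0.00 over all 14217 genes, of which 14.9% were called higher and 11.9% lower. With both kidneys 10 were higher and 5 lower, with a median of 0.06, against -0.01 over all genes, of which 11.8% were higher and 9.69% lower. Over the other settings and on leaving out 1 array, these counts ran from 7 to 12 higher and 2 to 6 lower. The counts after uninephrectomy ran from 12 to 15 higher and 3 to 5 lower. The list holds the 7 members. Without them the 34 others gave 6 higher (17.6%) and 4 lower (11.8%) after uninephrectomy, with a median of 0.03, near the shares of all genes. With both kidneys they gave 6 higher (17.6%) and 5 lower (14.7%), with a median of 0.01.

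**Figure D5:**
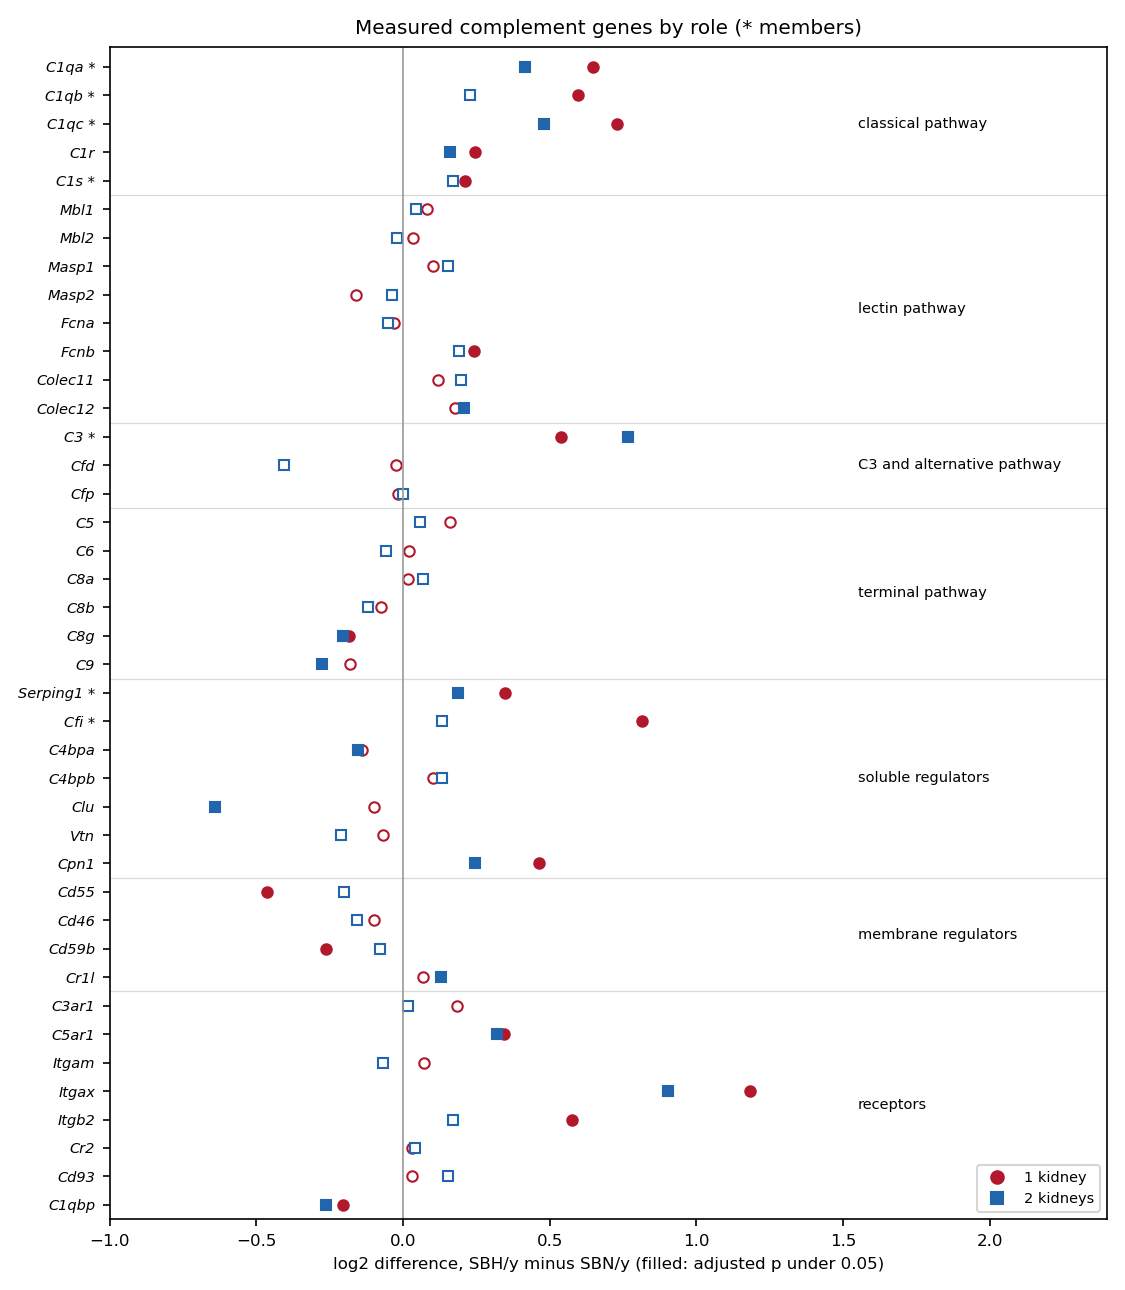
Log2 difference of the 41 measured complement genes ordered by role, SBH/y minus SBN/y with 1 kidney and with 2 kidneys. Filled points have an adjusted p under 0.05. The classical pathway genes lie to the right of 0 in the strain comparisons, Cd55 and Cd59b to the left with 1 kidney, and Itgax has the largest strain difference, 1.18 with 1 kidney.

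By role, the classical pathway differed most evenly. All 5 of its measured genes were higher in SBH/y after uninephrectomy and 3 with both kidneys. All of them but C1r are members, chosen with earlier results of these data known. C1r, the protease that activates C1s and the neighbour of C1s on chromosome 4, had 8.99, 9.03 and 9.05 in SBH/y kidneys after uninephrectomy, against 8.71, 8.77 and 8.84 in SBN/y kidneys. It differed by 0.24 ± 0.05 (adjusted p = 0.000505) after uninephrectomy, without overlap, and by 0.16 ± 0.05 (adjusted p = 0.0255) with both kidneys. In the lectin pathway 1 of 8 genes was higher in each state, Fcnb, a ficolin, by 0.24 (adjusted p = 0.0262) after uninephrectomy and Colec12, a scavenger collectin, by 0.21 (adjusted p = 0.0425) with both kidneys. Fcnb had group means of 4.59 in SBH/y and 4.35 in SBN/y kidneys after uninephrectomy, under the lowest array median of 5.72. A dimmer second probe set of Masp2, a lectin pathway protease, was lower in SBH/y with both kidneys (-0.22, adjusted p = 0.00967), where the brighter one was not called (-0.04).

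In the terminal pathway, whose products form the membrane attack complex, 6 genes were measured and those called were lower. C8g was lower in SBH/y after uninephrectomy (-0.18, adjusted p = 0.0472) and with both kidneys (-0.20, adjusted p = 0.0305), and C9 was lower with both kidneys (-0.28, adjusted p = 0.0426). C9 had group means of 4.41 in SBH/y and 4.69 in SBN/y sham kidneys, under the lowest array median of 5.72. Calls near the threshold here changed when any of several arrays was left out. For C8g after uninephrectomy these included sham arrays, which belong to neither group compared but enter the shared spread. C8g after uninephrectomy was lost in 16 of the 28 fits that leave out 1 array and with both kidneys in 5, C9 in 10, Colec12 in 9, C1r with both kidneys in 5 and Fcnb in 4. Without the 2 arrays apart in Bmal1, Fcnb (0.22, adjusted p = 0.0799) and C8g after uninephrectomy (-0.16, adjusted p = 0.123) were not called. C8g after uninephrectomy was lost too with median centring, array weights and only the groups compared (adjusted p up to 0.0728), and with only the groups compared Colec12 (adjusted p = 0.106) and C1r with both kidneys (adjusted p = 0.109) were lost.

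Among soluble regulators, Cpn1, the catalytic subunit of carboxypeptidase N that trims C3a and C5a, was higher in SBH/y by 0.46 (adjusted p = 1.6e-06) after uninephrectomy and 0.24 (adjusted p = 0.00646) with both kidneys. In SBH/y it was 0.24 higher after uninephrectomy (adjusted p = 0.0192), as Cfi was. Clu, clusterin, an inhibitor of the membrane attack complex that tubule cells make when stressed, was also higher after uninephrectomy in SBH/y, by 0.51 ± 0.07 (adjusted p = 1.18e-05), with 10.01, 10.19 and 10.47, against 9.62, 9.68 and 9.77 in sham kidneys. Its interaction was 0.54 ± 0.10 (adjusted p = 0.00315). With both kidneys Clu was lower in SBH/y (-0.64, adjusted p = 1.17e-08). For uninephrectomy in SBH/y and the interaction, a second, dimmer Clu probe set gave 0.21 (adjusted p = 0.13) and 0.24 (adjusted p = 0.447) and was not called. C4bpa, a cofactor of factor I, was lower in SBH/y with both kidneys (-0.15, adjusted p = 0.0362), at group means of 3.32 against 3.47, a call lost in 8 of the 28 fits that leave out 1 array and with quantile normalization (adjusted p = 0.136).

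Of 4 measured regulators anchored in the cell membrane, 2 were lower in SBH/y than in SBN/y after uninephrectomy, Cd55 and Cd59b, and 2 were not called, Cd46 (-0.10, adjusted p = 0.346) and Cr1l (0.07, adjusted p = 0.286). Cd55, decay-accelerating factor, had 6.73, 7.02 and 7.16 in SBH/y kidneys after uninephrectomy, against 6.93, 7.55 and 7.61 in SBN/y kidneys, a difference of -0.46 ± 0.08 (adjusted p = 5.56e-05). Cd59b, which blocks the membrane attack complex, had 10.42, 10.52 and 10.63 in SBH/y, against 10.67, 10.77 and 10.91 in SBN/y, without overlap, a difference of -0.26 ± 0.05 (adjusted p = 0.00023). Within SBH/y both were lower after uninephrectomy, with differences of -0.28 for Cd55 (adjusted p = 0.0283) and -0.20 for Cd59b (adjusted p = 0.0124), and the Cd59b arrays of the 2 groups did not overlap. A second Cd55 probe set gave -0.41 (adjusted p = 8.09e-05) between the strains and -0.25 (adjusted p = 0.034) within SBH/y, and with both kidneys it was called (-0.25, adjusted p = 0.0139) where the brighter one was not (-0.20). Cr1l, a rodent regulator related to complement receptor 1, was 0.13 higher in SBH/y with both kidneys (adjusted p = 0.0242), but its second probe set gave -0.03 (adjusted p = 0.856). The Cr1l call was lost with quantile normalization (adjusted p = 0.0514), with only the 2 groups compared (adjusted p = 0.077) and without SBN/y sham replicate 1, 4 or 7 or SBH/y sham replicate 1 (adjusted p of 0.0517, 0.0678, 0.0552 and 0.051). The Cd55 call within SBH/y was lost on leaving out any 1 of 5 arrays, with an adjusted p of up to 0.0795.

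Receptors for complement fragments included C5ar1, the C5a receptor of myeloid cells, higher in SBH/y by 0.34 (adjusted p = 0.000124) after uninephrectomy and 0.32 (adjusted p = 0.000416) with both kidneys. Itgax and Itgb2, the 2 chains of complement receptor 4, were higher by 1.18 (adjusted p = 1.4e-13) and 0.58 (adjusted p = 5.78e-06) after uninephrectomy, and Itgax by 0.90 with both kidneys. Itgb2 was also 0.30 higher after uninephrectomy in SBH/y (adjusted p = 0.0271), a call lost on leaving out any 1 of 6 arrays (adjusted p up to 0.0666). C1qbp, a mitochondrial protein that also binds C1q, was lower in SBH/y in the 2 states (-0.20, adjusted p = 0.000141, and -0.26, adjusted p = 4.79e-06). Cfp, properdin, was not called by its brighter probe set (-0.02 after uninephrectomy), while its dimmer one gave 0.47 (adjusted p = 5.01e-05) and 0.33 (adjusted p = 0.0038) in the 2 states.

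For uninephrectomy within SBH/y, 5 of the 41 genes were higher (C1qb, Cfi, Clu, Cpn1 and Itgb2) and 2 lower (Cd55 and Cd59b), with a median of 0.04, against 0.01 over all genes, of which 4.85% were higher and 5.51% lower. In SBN/y 0 of the 41 were called by limma and 5 had an unadjusted p under 0.05, as did 8.75% of all probe sets. The interaction was called for Cfi and Clu, and for 4 genes of the list without the 2 arrays apart in Bmal1.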

How the data were processed

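The authors deposited 1 table of log2 values, 1 per probe set and array, made with RMA after scanning with GCOS, per the submitters' processing notes, which give no version. RMA subtracts background, quantile-normalizes and summarises probes on the log2 scale, so changes in total RNA cannot be seen. Scanner files were not used here, so precision is limited by the number of arrays and detection was not checked.

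Of 31099 probe sets, 57 controls were left out, which left 31042. In the platform annotation 20826 of these had 1 symbol, 436 several and 9780 none. Symbols were updated by gene identifier through RefSeq's table for GRCr8.

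A linear model with 1 mean per group was fitted to all 28 arrays (limma 3.58.1, R 4.3.3, default eBayes) and gave 5 contrasts, with Benjamini-Hochberg adjustment over 31042 probe sets and a threshold of 0.05. The value after ± is the SE of a difference or the SD of 7 arrays. Genes were named as follows: the members in full, other complement genes where called, and the 5 genes most correlated with the C1q mean and with C3. The members and gene lists were chosen with earlier results of these data known. On simulated data with 200 changed probe sets, 95% of changes of 0.5 were recovered for the strain difference after uninephrectomy and 83% for the interaction. The simulation drew noise independently for each probe set and changed fewer probe sets than were called in the data. These shares therefore check the code, and do not give the chance of calling the members or smaller differences. Alternatives are given in the closing section.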

Additional observations from a re-analysis of the deposited data

Results flagged for a closer look

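In 48 sets of 7 arrays, a member or shared probe set in 1 group each, 7 held an array far from the other 6, and chance alone marks about 1 in 20. C1qb in SBN/y sham kidneys had its lowest value, 6.62, in replicate 7, with the next at 6.84. C1qc in SBH/y kidneys after uninephrectomy had its lowest value, 7.53, in replicate 2, with the next at 7.91, and this array also stood apart in Bmal1. C1s had a high value in 1 SBN/y array of each state, 10.15 in replicate 7 after uninephrectomy, with the next at 9.95, and 10.32 in replicate 2 of the sham kidneys, with the next at 9.95.

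Among the probe sets annotated to both Cfb and C2, SBH/y sham replicate 4 was the highest by 1383391_a_at, at 7.03 with the next at 6.67, and the lowest by 1389470_at, at 5.83 with the next at 6.02. SBN/y sham replicate 1 was the lowest by 1383392_at, at 5.99 with the next at 6.16.

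The uninephrectomy effect differed between the strains by the interaction test for 3 of the probe sets described. The difference was 0.68 for Cfi, 0.87 for the probe set annotated to C4a and C4b, and 0.54 for Clu, each larger in SBH/y.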

How the results depend on the processing

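Of 14 member differences called, 11 kept their call and direction in every setting run, and the 3 others (C1s between the strains after uninephrectomy, Serping1 between the strains with both kidneys, C1qb for uninephrectomy in SBH/y) stood near the threshold, with the values beside them in the report. C1s after uninephrectomy also lost its call under quantile normalization (0.18, adjusted p = 0.0532). Settings were quantile normalization, median centring, trended and robust eBayes, a filter on the dimmest 40% of probe sets, fitting only the groups compared (not possible for the interaction), array weights, the replicate number as a block, leaving out each array, and, chosen after seeing the data, leaving out the 2 arrays apart in Bmal1. Averaging a member's probe sets was not run, since each has 1. The causes of the changes below were not tested.

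Members called for uninephrectomy in SBH/y, 2 in the report, numbered 4 with quantile normalization, 4 without the dimmest 40%, 1 with only the groups compared and 4 without the 2 arrays, and 1 to 4 on leaving out 1 array. C1qa accounts for part of this, with a call for uninephrectomy in SBH/y under quantile normalization, median centring, the dimmest 40% left out, trended and robust eBayes, the replicate block and without the 2 arrays. Members called for the interaction numbered 2 without the 2 arrays and 1 to 2 on leaving out 1. Probe sets called for uninephrectomy in SBN/y, 144 in the report, numbered 60 with only the groups compared, 225 with array weights and 62 to 167 on leaving out 1 array. Those called for the interaction, 439 in the report, numbered 899 with array weights, 977 without the 2 arrays and 306 to 870 on leaving out 1, the highest without SBH/y replicate 2 after uninephrectomy. With the replicate block the counts were 280 for uninephrectomy in SBN/y and 812 for the interaction. The block also ended the call of C8g between the strains after uninephrectomy (adjusted p = 0.0515). The replicate numbers share no pairing in the labels, 24 of 42 pairs of same-numbered arrays correlated above 0.1 after group means were subtracted, and 10 of 28 arrays correlated best with an array of their own number.

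Signs turned only for differences close to 0, none of them called. With array weights these were Serping1 for uninephrectomy in SBH/y (-0.016) and the C1s interaction (-0.021). On leaving out 1 array the ranges were -0.022 to 0.041 for Serping1 in SBH/y, -0.032 to 0.077 for the C1s interaction, and, for uninephrectomy in SBN/y, -0.012 to 0.049 for C1qa, -0.041 to 0.020 for C1qc, and -0.071 to 0.040 and -0.056 to 0.018 for the Cfb and C2 probe sets 1383392_at and 1393219_at.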
